A study of Homo sapiens with 6 samples.

Results

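The BCL2 family decides whether a cell opens its mitochondrial outer membrane and dies by apoptosis. Guardian proteins hold the pore-forming effectors in check, and BH3-only proteins, which sense stress, bind the guardians or activate the effectors. Cells of pleural mesothelioma, a cancer of the lining of the chest, are known to lean on BCL-XL, the product of *BCL2L1*, and on MCL1 for survival. Here, 10 of these regulators among the 58735 genes listed, chosen by gene symbol, were compared between H2452 cells with and without disruption of *NF2*. They were the guardians *BCL2*, *BCL2L1*, *MCL1* and *BCL2A1*, the effectors *BAX* and *BAK1*, and the BH3-only genes *BCL2L11* (BIM), *PMAIP1* (NOXA), *BID* and *BMF*. Each symbol was found once.

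H2452 is an established pleural mesothelioma cell line, and *NF2* encodes merlin, an upstream activator of the Hippo pathway. The series holds 3 sgCtrl libraries, labelled wild type and made from cells given Cas9 with a scrambled guide, and 3 sgNF2-1 libraries from cells given Cas9 with a guide against *NF2*. Both lines were lentivirally transduced, sorted populations and not single clones, and both grew in the same serum-supplemented medium. With a single guide against *NF2*, differences of guide or of sorted population cannot be told apart from the disruption of *NF2*. The labels name no treatment. The study's methods call its data biological replicates in general terms, and the labels do not say whether the libraries of a group came from separate cultures, so p-values measure the spread between these libraries, which may be technical.

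Total counts per library ranged from 14782423 to 17416463. *NF2* itself had 1162, 1197 and 1025 counts in sgCtrl and 692, 802 and 590 in sgNF2-1, a log2 fold change of -0.69 ± 0.10 (SE, adjusted p = 7.9e-06, edgeR quasi-likelihood test with Benjamini-Hochberg adjustment). The first principal component held 62.1% of the variance and separated the groups. Of 10 mesothelial markers, 9 were expressed above the low-count filter and *KRT5* had at most 3 counts. Of these 9, *KRT7*, *MSLN* and *KRT18* rose (log2 fold change 1.20, 0.66 and 0.28) and *PDPN*, *WT1* and *KRT19* fell (-1.28, -1.04 and -0.94, each with an adjusted p under 0.05, edgeR), and the part of these changes in the results was not tested. Of 8 markers of blood, endothelial and fibroblast cells, 5 had at most 3 counts in every library, with *PTPRC* and *DCN* at 0 throughout, and their summed level was 6.06 to 7.62 CPM (counts scaled to library size) in sgCtrl and 1.26 to 2.14 in sgNF2-1, most of it *PECAM1*, and its part in the results was not tested. Mitochondrial genes took 2.65 to 3.69% of counts in sgCtrl and 3.67 to 4.67% in sgNF2-1, and the part of this share in the results was not tested. In bulk RNA, fewer cells with a transcript and less of it per cell cannot be told apart.

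Of the 10 members, 4 rose in sgNF2-1: the guardians *BCL2* and *BCL2L1*, the effector *BAK1* and the BH3-only gene *PMAIP1*. None of the 8 members that passed the low-count filter fell, and 4 did not pass the test (*MCL1*, *BAX*, *BCL2L11*, *BID*). *BMF* and *BCL2A1* were too scarce to be tested. A call needed an adjusted p under 0.05, which 17.7% of all 14179 tested genes reached as higher, 16.6% as lower and 34.3% in either direction. The median log2 fold change was 0.23 over the 8 tested members and -0.0025 over all tested genes. The 4 called members were also the ones whose 3 sgNF2-1 libraries all lay above the 3 sgCtrl libraries, which held for 23.2% of all tested genes, and for 45.3% in either direction. When a log2 fold change beyond 0.5 was required with an unadjusted p under 0.05, only *BCL2* and *BCL2L1* were called higher, against 9.22% of all tested genes, and none was called lower, against 10.8%. On the FPKM scale, where the same 8 members were tested, limma called *BCL2L1* and *BAK1* higher and none lower, against 14.3% higher, 14.1% lower and 28.4% in either direction of 13038 genes. For single genes an exact permutation test of 3 libraries against 3 cannot give a p below 0.10, and all groups that did not overlap gave that value.

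**Figure D1:**
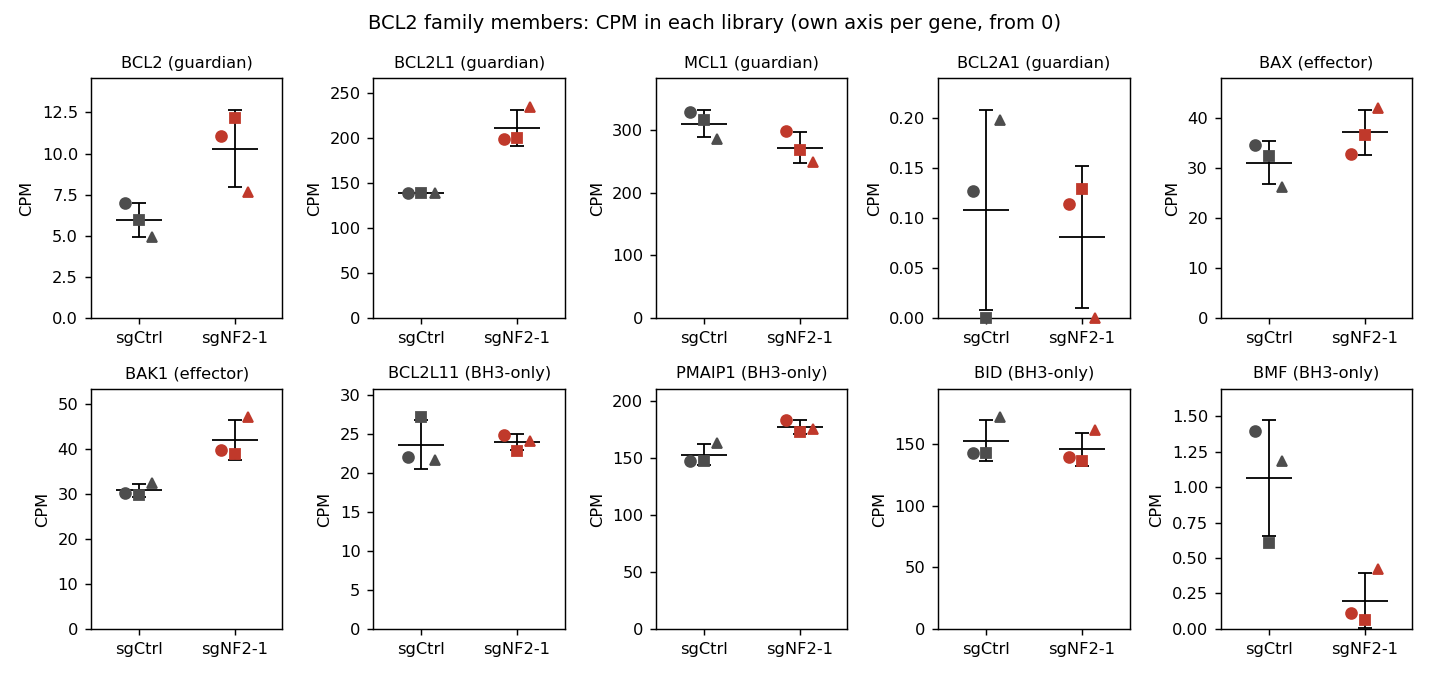
CPM (TMM-scaled) of each of the 10 members in each library, with sgCtrl in grey, sgNF2-1 in red, replicates 1, 2 and 3 as circle, square and triangle, and the mean ± SD (n = 3) as black lines. Every vertical axis starts at 0 and has its own scale. *BCL2L1* sits at 139 CPM in all 3 sgCtrl libraries and between 199 and 235 CPM in sgNF2-1, whereas the groups of *BID*, *BCL2L11*, *MCL1*, *BAX* and *BCL2A1* overlap.

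The DNA upstream of the members that rose is shown because each was called higher in sgNF2-1. Whether their rises share a cause was not tested. RefSeq windows (GRCh38.p14) of 250 bases before the transcript start matched 9 of the 10 members by symbol. *MCL1* had no window and was not searched. The stretches below end where GENCODE release 29 begins the first exon, and they run 5′ to 3′ in the direction of the gene. The window of *BCL2* lies wholly inside an annotated exon and is not printed. A further window of *BCL2L1* (chr20:31722869-31723118) has only 20 bases before an annotated exon and is not printed either. Capitals mark a motif match. The stretches are chr20:31723990-31724213 (minus strand) for *BCL2L1*, chr6:33580294-33580526 (minus strand) for *BAK1* and chr18:59899746-59899947 (plus strand) for *PMAIP1*.
BCL2L1: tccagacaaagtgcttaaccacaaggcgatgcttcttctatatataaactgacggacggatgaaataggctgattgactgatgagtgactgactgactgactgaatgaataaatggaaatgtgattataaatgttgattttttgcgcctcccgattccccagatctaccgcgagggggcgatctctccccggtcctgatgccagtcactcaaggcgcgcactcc
BAK1: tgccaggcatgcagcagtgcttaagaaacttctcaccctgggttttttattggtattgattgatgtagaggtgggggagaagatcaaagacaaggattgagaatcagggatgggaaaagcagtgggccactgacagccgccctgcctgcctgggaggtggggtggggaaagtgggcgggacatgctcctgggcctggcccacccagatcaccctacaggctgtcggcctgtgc
PMAIP1: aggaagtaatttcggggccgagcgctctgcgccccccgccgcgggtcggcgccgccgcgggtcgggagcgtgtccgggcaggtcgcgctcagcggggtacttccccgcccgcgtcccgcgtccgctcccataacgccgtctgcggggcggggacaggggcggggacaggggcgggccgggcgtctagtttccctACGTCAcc

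Motifs of 8 factors known to act on these genes or on Hippo targets were searched on both strands of the 250 bases: GGAATG (TEAD), TGACGT (CRE core), TGANTCA (AP-1), TGATGNAA (ATF4 composite), CACGTG (E-box), GGGANTTTC (NF-κB), TTTCCCGC (E2F) and GTAAACA (FOXO). *PMAIP1* held 1 CRE core, read on the other strand, at 56 to 51 bases before the RefSeq start. The last 48 bases of this window lie in an annotated exon and are not printed, so the match stands near the end of the printed stretch. A CRE core stood in 7.1% of all 35093 windows searched. None of the 8 motifs was in the windows of *BCL2*, *BCL2L1* or *BAK1*. The window of *BAX* held 4 E-boxes, a motif found in 6.34% of windows, that of *BCL2L11* 1 FOXO motif (2.98% of windows) and that of *BID* 1 E-box. The *BAX* E-boxes at 45 to 40 and 14 to 9 bases before the RefSeq start lie in an annotated exon. No match in a member overlapped a match of another motif. TEAD, AP-1, ATF4 composite, NF-κB and E2F motifs stood in 11.9%, 6.57%, 3.15%, 1.12% and 1.39% of windows. Of these motifs, the members with a window held only 1 ATF4 composite, in *BCL2A1*, whose window begins inside an annotated exon. A match of letters is a description of the sequence and says nothing of binding.

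*BCL2L1* encodes BCL-XL, and it rose with all 3 sgNF2-1 libraries above sgCtrl, whose libraries were nearly equal. Its CPM were 139, 139 and 139 in sgCtrl and 199, 200.1 and 235 in sgNF2-1, from 2196, 2287 and 2102 counts and 3505, 3089 and 3341 counts. The groups lay far apart, with sgNF2-1 replicate 3 the highest library. The mean CPM went from 139 ± 0.470 to 211 ± 20.2 (SD, n = 3), 1.52-fold higher, and the edgeR log2 fold change was 0.60 ± 0.08 (SE, 95% interval 0.43 to 0.78, adjusted p = 3.6e-06). On the FPKM scale, per length, the difference in log2(FPKM + 1) was 0.57 (limma, adjusted p = 0.0015). The gene (ENSG00000171552, chr20:31664452-31723989, minus strand, hg38 like all gene positions here) shares 1424 exon bases, or 43.0% of its own, with the antisense gene *ABALON*, whose counts were only 19 to 65. Whether counting used strand is not given in the sources used here, so reads of the shared bases cannot be told apart. Counts were per gene, so the 9 annotated transcripts of *BCL2L1* cannot be told apart either.

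*BCL2* itself, the founding member and the target of venetoclax, was scarce in these cells (ENSG00000171791, chr18:63123346-63320128, minus strand). It had 110, 98 and 75 counts in sgCtrl and 195, 188 and 109 in sgNF2-1, or 6.98, 5.97 and 4.94 CPM against 11.1, 12.2 and 7.65. The groups did not overlap, although sgNF2-1 replicate 3 lay close to the highest sgCtrl library. The log2 fold change of 0.79 ± 0.19 (SE, 95% interval 0.41 to 1.17, adjusted p = 0.0017, edgeR) was the largest among the tested members, and it ranged from 0.66 to 0.96 when each library in turn was left out, with an adjusted p of at most 0.013. In FPKM the gene stood at 0.480 ± 0.0824 and 0.823 ± 0.190 (SD, n = 3), and the difference in log2(FPKM + 1) of 0.30 did not pass (limma, adjusted p = 0.11). With a pseudocount of 0.1 in place of 1 the difference was 0.66 and did not pass either (adjusted p = 0.12, limma).

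*MCL1* (ENSG00000143384, chr1:150574551-150579738, minus strand), a short-lived guardian, was the most abundant guardian in sgCtrl. Its CPM were 329, 316 and 286 in sgCtrl and 298, 269 and 249 in sgNF2-1. The groups overlapped, with sgNF2-1 replicate 1 above sgCtrl replicate 3. The log2 fold change was -0.19 ± 0.09 (SE, 95% interval -0.37 to -0.01, adjusted p = 0.093, edgeR), and without sgCtrl replicate 3 it was -0.24 with an adjusted p of 0.036. *BCL2A1*, an NF-κB-inducible guardian of blood cells, had 2, 0 and 3 counts in sgCtrl and 2, 2 and 0 in sgNF2-1. A change in *BCL2A1* was not detectable at this depth, since the ratio of sgNF2-1 to sgCtrl was 0.801 with an exact 95% counting interval of 0.159 to 3.72.

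Set side by side per length, *MCL1* stood clear above *BCL2L1* in sgCtrl, and the gap between them closed in sgNF2-1. In sgCtrl, *MCL1* had 67.3 ± 4.87 FPKM and *BCL2L1* 39.8 ± 0.191, without overlap. In sgNF2-1, *BCL2L1* had 59.9 ± 5.62 FPKM and *MCL1* 58.5 ± 5.34 (SD, n = 3), and their ranges overlapped. The ratio of *BCL2L1* to *MCL1* was 0.559, 0.581 and 0.639 in the sgCtrl libraries and 0.880, 0.982 and 1.24 in the sgNF2-1 libraries. Every sgNF2-1 library was thus above every sgCtrl library in this ratio, and sgNF2-1 replicate 3 alone exceeded 1. *BCL2L1* made up 37.0% ± 1.61 of the FPKM summed over the 4 guardians in sgCtrl and 50.2% ± 4.45 in sgNF2-1, *MCL1* 62.5% ± 1.61 and 49.0% ± 4.27, and *BCL2* under 1% of it in every library. These shares are descriptions of RNA and were given no test. FPKM used the annotated length of each gene, 4371 bases for *MCL1* and 3314 for *BCL2L1*, whichever transcripts were expressed. The gap, the ratio and the shares between genes depend on these lengths.

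**Figure D2:**
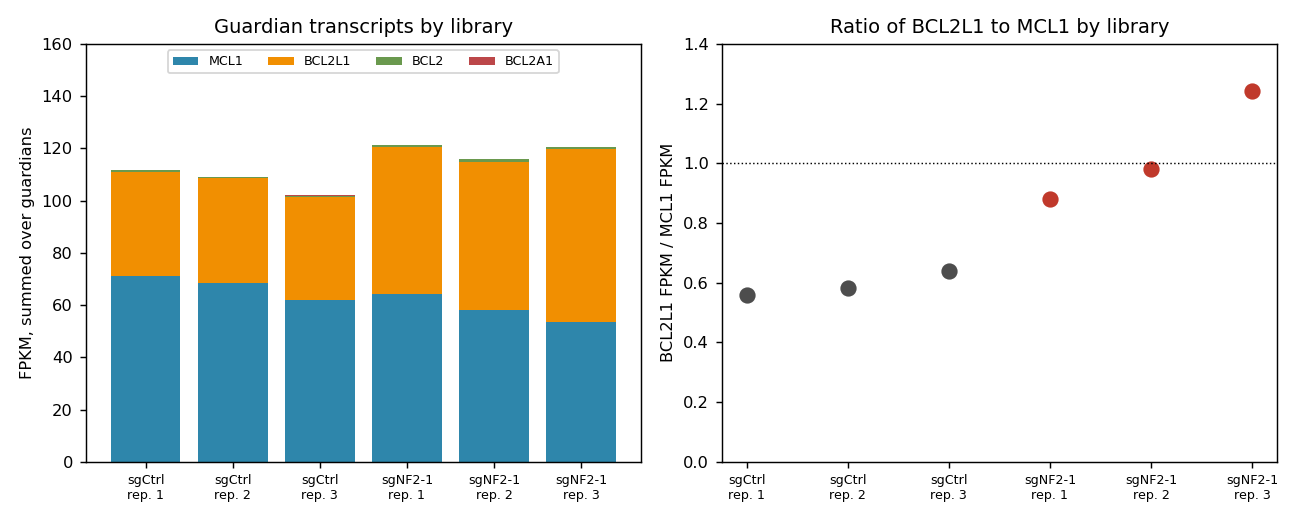
Left, FPKM of the 4 guardians stacked per library, from 0, where *BCL2* is a thin band and *BCL2A1* too small to see. Right, the ratio of *BCL2L1* FPKM to *MCL1* FPKM per library, with sgCtrl in grey, sgNF2-1 in red and a dotted line at a ratio of 1. The ratio is 0.559 to 0.639 in sgCtrl and 0.880 to 1.24 in sgNF2-1.

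Of the effectors, which form the pores once freed, *BAK1* (ENSG00000030110, chr6:33572547-33580293, minus strand) rose and *BAX* (ENSG00000087088, chr19:48954815-48961798, plus strand) did not pass the test. *BAK1* had 30.3, 29.8 and 32.4 CPM in sgCtrl and 39.9, 38.9 and 47.0 in sgNF2-1. All sgNF2-1 libraries were higher, and replicate 3 again the highest. Its log2 fold change was 0.44 ± 0.10 (SE, 95% interval 0.23 to 0.66, adjusted p = 0.0017, edgeR), and its difference in log2(FPKM + 1) was 0.40 (limma, adjusted p = 0.0097). Reads of near-identical copies are uncertain, but the pseudogenes *BAK1P1* and *BAK1P2* had at most 18 and 2 counts. *BAX*, which resides in the cytosol until activated, had 34.6, 32.5 and 26.3 CPM in sgCtrl and 33.0, 36.6 and 42.0 in sgNF2-1, and these groups overlapped. Its log2 fold change was 0.25 ± 0.12 (SE, 95% interval 0.01 to 0.49, adjusted p = 0.097, edgeR). The FPKM of *BAX* and *BAK1* summed to 24.6 ± 1.10 in sgCtrl and 31.3 ± 3.37 in sgNF2-1 (SD, n = 3). With *BOK*, a further effector described with the other family genes, the sum was 40.4 ± 1.81 and 63.2 ± 7.26.

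Of the BH3-only members, *PMAIP1* (ENSG00000141682, chr18:59899948-59904306, plus strand), whose product NOXA binds and helps to degrade MCL1, was called higher by a small margin. Its CPM were 147, 148 and 164 in sgCtrl and 184, 173 and 175 in sgNF2-1. The groups were close but did not overlap. The log2 fold change was 0.22 ± 0.08 (SE, 95% interval 0.05 to 0.38, adjusted p = 0.040, edgeR), and the limma test on log2(FPKM + 1) gave 0.20 (adjusted p = 0.061). The call was lost without sgCtrl replicate 1 (adjusted p = 0.14), sgCtrl replicate 2 (0.16), sgNF2-1 replicate 1 (0.14) or sgNF2-1 replicate 2 (0.074), with edgeR on library totals only (0.068), and with no filter (0.052).

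*BCL2L11*, the activator BIM, had 22.0, 27.2 and 21.7 CPM in sgCtrl and 24.8, 22.8 and 24.2 in sgNF2-1. The groups overlapped, and the log2 fold change of 0.02 ± 0.12 had a 95% interval of -0.22 to 0.26 (adjusted p = 0.93, edgeR). It shares 727 exon bases, 10.9% of its own, with *MIR4435-2HG* on the other strand, a gene of 1363 to 1753 counts, so its level is uncertain. *BID*, which links death receptors to mitochondria after cleavage by caspase 8, had 143, 143 and 172 CPM in sgCtrl and 140, 136 and 161 in sgNF2-1. These groups overlapped as well, with replicate 3 the highest in each, and the log2 fold change was -0.07 ± 0.09 (SE, 95% interval -0.25 to 0.12, adjusted p = 0.61, edgeR).

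*BMF* (ENSG00000104081, chr15:40087890-40108892, minus strand), a BH3-only gene tied to the cytoskeleton and to loss of attachment, was the one member with all sgNF2-1 libraries below sgCtrl. It had 22, 10 and 18 counts in sgCtrl and 2, 1 and 6 in sgNF2-1. The groups did not overlap, and the summed counts of 50 and 9 gave a level 5.55-fold higher in sgCtrl, with an exact 95% counting interval of 2.70 to 12.8 that covers counting error only. The gene missed the low-count filter. With no filter its edgeR log2 fold change was -2.40 (95% interval -3.73 to -1.16, adjusted p = 0.0020). DESeq2 gave an unadjusted p of 0.0033 and no adjusted p. Fitted values at such counts depend on the prior count.

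Per length, the 10 members spanned a wide range of levels. The order depends on the annotated gene lengths, which need not be those of the transcripts expressed. In sgCtrl the order by mean FPKM was *MCL1* (67.3), *PMAIP1* (64.8), *BCL2L1* (39.8), *BID* (32.5), *BAK1* (13.2), *BAX* (11.4), *BCL2L11* (3.37), *BCL2* (0.480), *BMF* (0.185) and *BCL2A1* (0.0941). Only *MCL1* with *PMAIP1* and *BMF* with *BCL2A1* overlapped their neighbour in this order. In sgNF2-1, *PMAIP1* came first (74.5), *BCL2L1* (59.9) and *MCL1* (58.5) overlapped, the order from *BID* to *BCL2* stayed as it was, and *BCL2A1* (0.0700) and *BMF* (0.0344) overlapped at the end. The summed FPKM of the 4 guardians over that of the effectors and BH3-only genes among the 10 members was 0.860 ± 0.0793 in sgCtrl and 0.852 ± 0.0254 in sgNF2-1 (SD, n = 3), a difference within the spread of the libraries. This ratio covers only part of each role. With the other family genes of the same roles included, it was 0.698, 0.703 and 0.607 in the sgCtrl libraries and 0.655, 0.631 and 0.570 in the sgNF2-1 libraries, and the groups overlapped.

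The other BCL2 family genes add several roles. Of 13, 8 were tested, of which 2 rose, 2 fell and 4 did not pass, with a median log2 fold change of -0.05. Among all tested genes, 17.7% were called higher and 16.6% lower. *BOK*, an effector kept low by protein turnover, had 749, 728 and 661 counts in sgCtrl and 1404, 1431 and 1472 in sgNF2-1, without overlap, and rose by a log2 fold change of 1.02 ± 0.10 (SE, adjusted p = 1.1e-08, edgeR). *BBC3*, the stress-inducible BH3-only gene PUMA, went from 174, 214 and 154 to 350, 282 and 383 counts, a log2 fold change of 0.92 ± 0.15 (adjusted p = 2.6e-05, edgeR). Both estimates were above that of *BCL2*, the largest of the tested members, whose 95% interval held both. The BH3-like mitophagy receptors *BNIP3* and *BNIP3L* fell by 0.45 and 0.50 on the log2 scale (adjusted p = 0.00019 and 4.0e-05, edgeR). The guardian *BCL2L2* (BCL-w) had a log2 fold change of -0.27 (adjusted p = 0.087), *BAD* of -0.12 (0.50), *BCL2L12* of 0.02 (0.93) and *BCL2L13* of 0.11 (0.30).

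Of the 5 family genes below the filter, *HRK*, a BH3-only gene best known from neurons, stood out. It had 1, 4 and 1 counts in sgCtrl and 12, 10 and 13 in sgNF2-1, without overlap. The ratio of summed counts after scaling was 5.84, with an exact 95% counting interval of 2.43 to 17 that covers counting error only. With no filter the edgeR log2 fold change was 2.51 (95% interval 0.98 to 4.18, adjusted p = 0.012), which rests on at most 13 counts in any library. *BIK*, *BCL2L10*, *BCL2L14* and *BCL2L15* had at most 6, 2, 2 and 5 counts in any library.

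**Figure D3:**
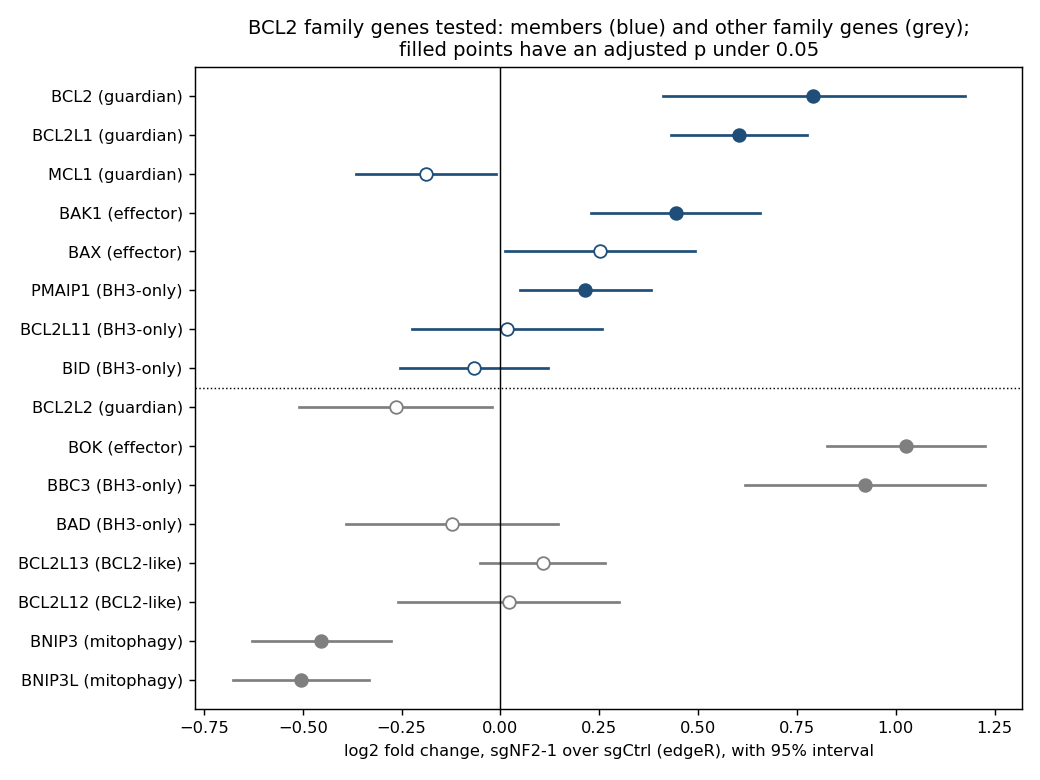
edgeR log2 fold change of sgNF2-1 over sgCtrl (horizontal axis) with its 95% interval for the 8 tested members in blue and 8 other tested family genes in grey, grouped by role. Filled points have an adjusted p under 0.05. *BCL2*, *BCL2L1*, *BAK1*, *PMAIP1*, *BOK* and *BBC3* lie to the right of 0, and *BNIP3* and *BNIP3L* lie to the left.

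Once the pores open, released cytochrome c assembles the apoptosome with APAF1 and starts the caspases, which death receptors can also start without the pores. The next list held 21 genes of the apoptosome, of the caspases with their regulators, and of death receptor signalling, all tested. In it 2 rose, 2 fell and 17 did not pass, with a median log2 fold change of -0.13. Over all tested genes, 17.7% were called higher and 16.6% lower. The symbol *DIABLO* stood on 2 identifiers, and only the older was used, with 22 to 46 counts. *APAF1*, the apoptosome scaffold, had 175, 242 and 201 counts in sgCtrl and 130, 107 and 81 in sgNF2-1, and fell without overlap of the groups, with a log2 fold change of -0.96 ± 0.16 (SE, adjusted p = 4.2e-05, edgeR). *CFLAR*, the FLIP inhibitor of caspase 8 at death receptors, fell by 0.43 on the log2 scale (adjusted p = 0.00070, edgeR). *HTRA2*, a mitochondrial protease that antagonises caspase inhibitors, and *DFFA*, the inhibitor of the caspase-activated nuclease, rose by 0.53 and 0.43 (adjusted p = 0.0019 and 0.000575, edgeR). *CASP9*, the caspase of the apoptosome, had a log2 fold change of -0.20 (adjusted p = 0.33, edgeR).

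Among 11 partners and turnover factors of the family's proteins, all tested, 1 rose and none fell, against 17.7% and 16.6% of all tested genes. *TPT1*, an MCL1- and BCL-XL-associated survival factor, rose by 0.37 on the log2 scale (adjusted p = 0.0065, edgeR), a call lost without sgCtrl replicate 1 (adjusted p = 0.051) or sgCtrl replicate 2 (0.055). The ubiquitin pathway genes that set MCL1 protein turnover did not pass: *HUWE1* had a log2 fold change of 0.05, *FBXW7* of -0.42, *USP9X* of -0.24 and *MARCH5* of 0.19 (adjusted p = 0.67, 0.076, 0.051 and 0.092, edgeR). *USP9X* narrowly missed the threshold, and 7 of the 13 alternatives called it lower.

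Of 19 transcription factors known to act on BCL2 family genes, 17 were tested. Of these, 9 rose, 2 fell and 6 did not pass, with a median log2 fold change of 0.32. Shares over all tested genes were 17.7% higher and 16.6% lower. The 5 with the largest change among those called were *ATF3* (2.33 ± 0.11), *MITF* (1.80 ± 0.43), *MYC* (1.07 ± 0.08), *RELB* (0.96 ± 0.11) and *DDIT3* (0.95 ± 0.10; log2 fold change ± SE, all with an adjusted p of 0.0020 or lower, edgeR). *ATF3* and *DDIT3* (CHOP) are stress-induced factors known to act on BH3-only genes. *RELB* is an NF-κB subunit, and *MITF* is known as an activator of *BCL2* in melanocytes. The part of any of these factors in the changes of the members was not tested. *ATF3* had 172, 174 and 169 counts in sgCtrl and 948, 911 and 730 in sgNF2-1, the largest change of the 17, while *MITF* had 9, 8 and 8 counts against 48, 17 and 24. *MITF* passed the low-count filter only through sgNF2-1, where it was high, so its call lends no support, and 8 of the factors were called higher when every library needed at least 10 counts. *ATF4*, *NFKB1*, *NFKB2* and *RELA* also rose and *E2F1* and *JUN* fell, named after their values were seen. *FOXO3* (log2 fold change -0.06, adjusted p = 0.66, edgeR) and *STAT3* (-0.13, 0.21) did not pass.

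**Figure D4:**
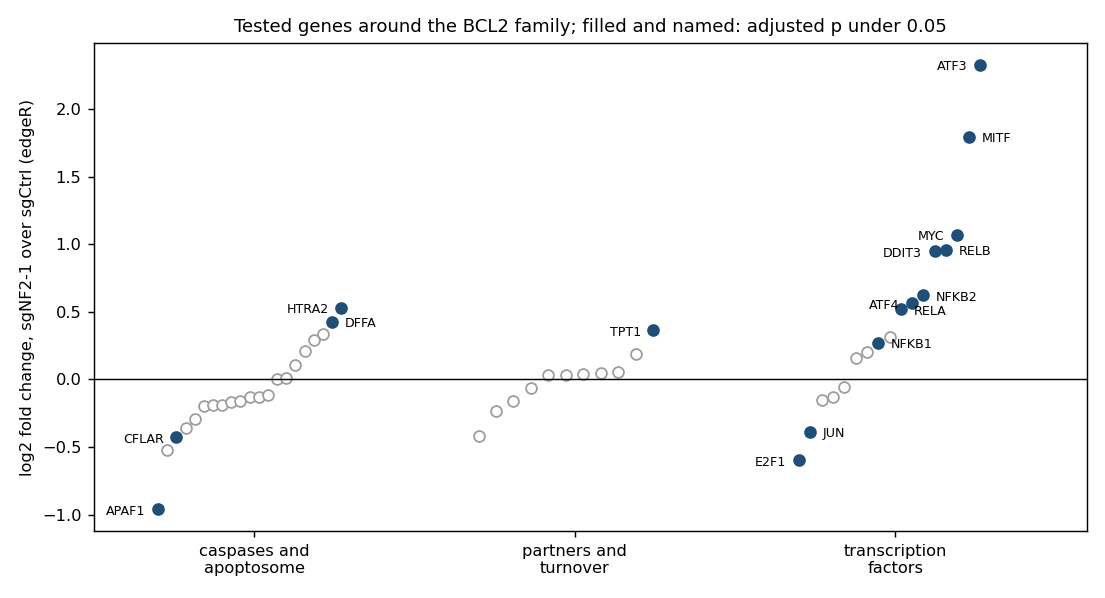
edgeR log2 fold change of sgNF2-1 over sgCtrl (vertical axis) for each tested gene of 3 lists around the family: caspases and apoptosome (21), partners and turnover (11) and transcription factors (17), sorted within each list. Filled, named points have an adjusted p under 0.05. *ATF3* is the highest point at 2.33, and *APAF1* the lowest at -0.96.

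Among the 3 genes whose profile over the 6 libraries was most like that of *BCL2L1* were *C19orf48* and *DDX56*, with root mean square differences of 0.033 and 0.034 in centred log2(CPM + 0.5) among 13137 genes with a mean of at least 1 CPM. For *BCL2* they were *TBC1D4*, *AC016831.6* and *SPRY4*, at 0.073, 0.084 and 0.091. Likeness over 6 libraries in 2 groups largely reflects the difference between the groups and was given no test.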

How the data were processed

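RNA of 3 sgCtrl and 3 sgNF2-1 libraries was analysed, grouped by sample title. Per the labels and methods, libraries were made with a NEBNext Ultra RNA kit and sequenced paired-end, and the processing notes name HISAT2, StringTie 1.3.3b, featureCounts 1.5.0-p3 and hg38. The deposited files hold unnormalized read counts for each gene. The deposited FPKM values divide these by gene length and depth. Strand handling is not given in the sources used here.

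Counts were filtered with filterByExpr (minimum count 10, total 15), which left 14179 of 58735 genes, scaled by TMM and fitted with edgeR 4.0.16 (quasi-likelihood, R 4.3.3). P-values were adjusted by Benjamini-Hochberg over all tested genes, and calls used an adjusted p under 0.05. limma 3.58.1 was run on log2(FPKM + 1) for 13038 genes with a mean FPKM of at least 0.5. The steps were tested on simulated counts. Alternatives were DESeq2 1.42.0, edgeR with its size factors, edgeR with library totals, no low-value filter, 10 counts in every library, protein-coding genes, a replicate block, leaving out each library, the study's p and fold limits, and a pseudocount of 0.1.

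Members and lists were chosen with earlier results of these data known. Named genes were all members, all other family genes, up to 5 called genes with the largest change from each other list, and the 3 genes nearest in profile to the 2 called members with the largest change. Other genes were named after their values were seen. Some results that this rule selects are not reported here. Promoter windows came from RefSeq.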

Additional observations from a re-analysis of the deposited data

How the results depend on the processing

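*BCL2*, *BCL2L1* and *BAK1* were called higher under all 13 count alternatives, with log2 fold changes of 0.66 to 0.96, 0.53 to 0.65 and 0.36 to 0.50. *PMAIP1* kept its call in 7 of 13. Members called lower numbered 0, and 1 with no filter (*BMF*), and ranged from 0 to 1 when each library was left out (*BMF* or *MCL1*). Where a library was left out, *BMF* entered the fits only through its sgCtrl counts, so those calls of *BMF* lend no support. With no filter every gene with a count was fitted, and the *BMF* call there rests on at most 22 counts in any library. The log2 fold change of *BCL2L11* turned to -0.0108 on library totals and ranged from -0.0392 to 0.131 when libraries were left out, that of *BID* from -0.141 to 0.0294. In log2(FPKM + 1) these ranges were -0.0387 to 0.0906 and -0.147 to 0.00921. None of these values passed the test. The cause of each change was not tested. No call of a member in FPKM changed with a pseudocount of 0.1 or no filter, and *PMAIP1* was called higher in FPKM without sgCtrl replicate 3 (adjusted p = 0.032, limma).

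Under the limits of 0.05 on the unadjusted p and 0.5 on the log2 fold change, 1308 genes were called higher and 1531 lower. Members called higher were then 2, other family genes lower 1, downstream genes 1 higher and 1 lower, partners 0 higher and transcription factors 1 lower. Partners called higher ranged from 0 to 1 and lower from 0 to 2 when libraries were left out, and 1 was lower with DESeq2's size factors, library totals, 10 counts in every library or protein-coding genes only (*USP9X*).

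With the replicate number as a block, members called lower were 1 in counts (*MCL1*, log2 fold change -0.19, adjusted p = 0.033, edgeR) and 1 in FPKM (*MCL1*, adjusted p = 0.045, limma), and partners called lower were 1. The block changed no other call of a member. The deviations of same-numbered libraries correlated at -0.04, 0.07 and 0.06, and not every library correlated best with its own number. With 3 libraries a group, these correlations cannot tell whether same-numbered libraries shared a culture or a batch. Depth limits what can be said of *BCL2A1*, *BMF* and *HRK*.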
